A study of Mus musculus with 8 samples.

Results

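Hair follicles grow down from the embryonic epidermis, and 10 genes for transcription factors of that programme were followed here in mouse epidermis that lacked or kept the gene Nir. The genes were Lhx2, Sox9, Foxi3, Foxe1, Foxn1, Msx1, Msx2, Hoxc13, Sox21 and Tbx1. They were chosen by name, as factors known from placodes, follicle stem cells and the hair matrix, out of 23146 genes with counts. Each was matched by its symbol to 1 RefSeq transcript in the deposited counts, and all 10 were found.

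Nir, also called Noc2l, encodes a protein that binds p53 and inhibits histone acetyltransferases. The knockouts came from a cross of floxed Nir mice with a Krt14-Cre line, in which the keratin 14 promoter drives the recombinase in basal keratinocytes. Cells of the skin that do not use this promoter should keep the gene. Control embryos also carried floxed Nir, and 2 control and 2 knockout epidermis samples were taken on each of the embryonic days E15.5 and E17.5, once the dermis had been peeled away. Replicates carry a number in the labels and nothing on the embryos or litters behind them, so p-values here measure the spread between these samples alone, and that spread may be technical. Neither strain nor sex is given in the sources used.

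Follicle formation starts with placodes, thickenings of the epidermis that form under Wnt and Eda signals, and continues as Shh drives them downward. Lhx2, Foxi3 and Sox9 act early, in placodes and in the cells that become follicle stem cells. Foxn1, Hoxc13, Msx2 and Foxe1 act later, in the matrix cells that build the hair shaft and its sheaths. The first follicles form before E15.5 and further waves follow, so follicles present by E17.5 are of several ages.

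The libraries held 25226357 to 28895657 counts assigned to named genes, and 17835 to 18092 genes were detected in each. Levels are CPM values, which are read counts relative to a library total scaled by TMM (trimmed mean of M values). Noc2l itself measured 107 and 97.4 CPM in the E15.5 controls and 95.6 and 91.6 CPM in the E15.5 knockouts, a log2 fold change of -0.12 ± 0.10 (SE) with an adjusted p of 0.33 in edgeR's quasi-likelihood test. At E17.5 it measured 106 and 121 CPM in controls and 85.4 and 86.9 CPM in knockouts and fell by 0.39 ± 0.10 on the log2 scale (edgeR adjusted p = 0.0062). Reads from the whole Noc2l transcript enter these values, not those of the floxed exons alone. The E15.5 knockout libraries stood further apart than other replicate pairs, with a chi-square per gene of 33.4 against 15.7 to 25.5. Replicate 1 of that group held 34.5 CPM of the cartilage collagen Col2a1, against 0.915 CPM in replicate 2 and at most 0.548 CPM elsewhere.

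Markers showed epidermis together with other tissue of the skin in all libraries. The 10 basal keratinocyte markers, Krt5 and Krt14 among them, summed to 7217 to 7705 CPM in the E15.5 controls and 2241 to 2274 CPM in the E15.5 knockouts. At E17.5 the sums were 7779 to 7790 CPM and 1446 to 1468 CPM. The 12 dermal fibroblast markers went the other way, from 33010 to 34826 CPM in the E15.5 controls to 80238 to 99231 CPM in the knockouts, and from 28777 to 32891 CPM to 102290 to 107510 CPM at E17.5. Of 10 basal markers 9 fell at E15.5 and 9 at E17.5, while 12 and 11 of the 12 fibroblast markers rose. Of 8 markers of the periderm, the outermost embryonic epithelium, 7 rose and 1 fell at each stage, with sums of 602 to 686 CPM in E15.5 controls and 2834 to 2871 CPM in knockouts, and of 730 to 859 and 1060 to 1394 CPM at E17.5. All 7 erythroid and all 7 myeloid markers rose at both stages. The erythroid sums went from 5427 to 7615 CPM in E15.5 controls to 29316 to 54529 CPM in knockouts, and from 2208 to 2280 CPM to 23703 to 23865 CPM at E17.5. The part of these cells in the falls described here was not tested. In such bulk samples, fewer cells of a type and less RNA per cell cannot be told apart, and this holds for every fall described here.

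**Figure D1:**
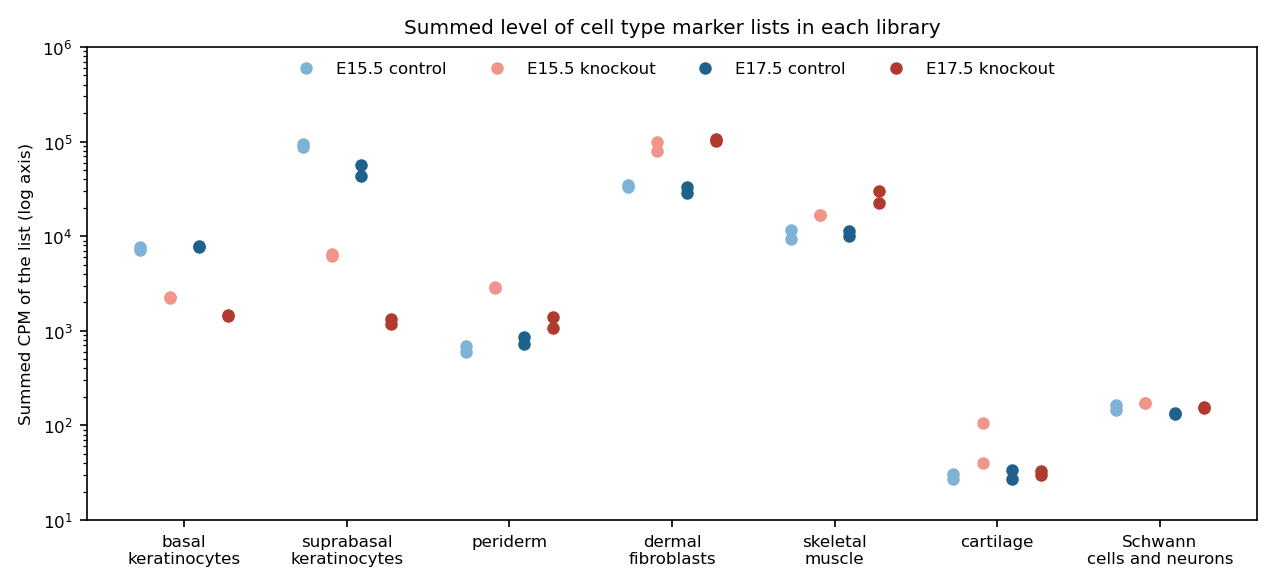
Summed CPM of 7 lists of cell type markers (log axis) in each of the 8 libraries, 1 point per library, coloured by stage and genotype. Basal and suprabasal keratinocyte lists were lower and periderm, fibroblast and muscle lists higher in the knockout libraries, and cartilage markers stood at 105 CPM in a single E15.5 knockout library.

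In control epidermis at E15.5, Lhx2 was the most abundant of the 10 per length of transcript, with 22.1 ± 3.28 CPM per kilobase (mean ± SD, n = 2). Foxi3 (12.8 ± 3.15) and Sox9 (12.6 ± 0.392) followed with overlapping libraries. Foxn1 (5.96 ± 0.949), Sox21, Tbx1, Hoxc13, Msx2, Msx1 and Foxe1 came next in that order, and each stood above the next in both libraries. At E17.5 the controls kept Lhx2 at the top with 41.5 ± 5.003 CPM per kilobase, before Sox9 at 20.8 ± 0.295 and Foxi3 at 15.2 ± 1.64. Sox21, Hoxc13, Msx2, Tbx1 and Msx1 then lay between 6.26 and 9.58 CPM per kilobase, each overlapping its neighbour in the order. Foxn1 (4.02) and Foxe1 (0.648) came last. Counts are per RefSeq transcript and lengths are from GENCODE, so a level per kilobase is off where the 2 models differ. The length used for Foxi3 covers 1206 bases, nearly all of them coding, and its level is overstated only if the counted model was longer. The 2804 bases used for Foxe1 are more than its RefSeq span, so its level may be understated.

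The order differed in the knockouts. Sox9 held 54.2% of the summed per-kilobase level of the 10 genes at E15.5 and 58.3% at E17.5, against 18.6% and 16.99% in controls. Lhx2 held 32.6% in E15.5 controls and 3.08% in E15.5 knockouts. Tbx1 was second in both knockout groups, with 1.91 CPM per kilobase at E15.5 and 1.65 at E17.5. Summed in CPM, the 10 genes made up 178 to 205 CPM in the E15.5 controls and 39.2 to 43.1 CPM in the E15.5 knockouts. At E17.5 the sums were 329 to 361 CPM in controls and 34.8 to 39.4 CPM in knockouts.

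**Figure D2:**
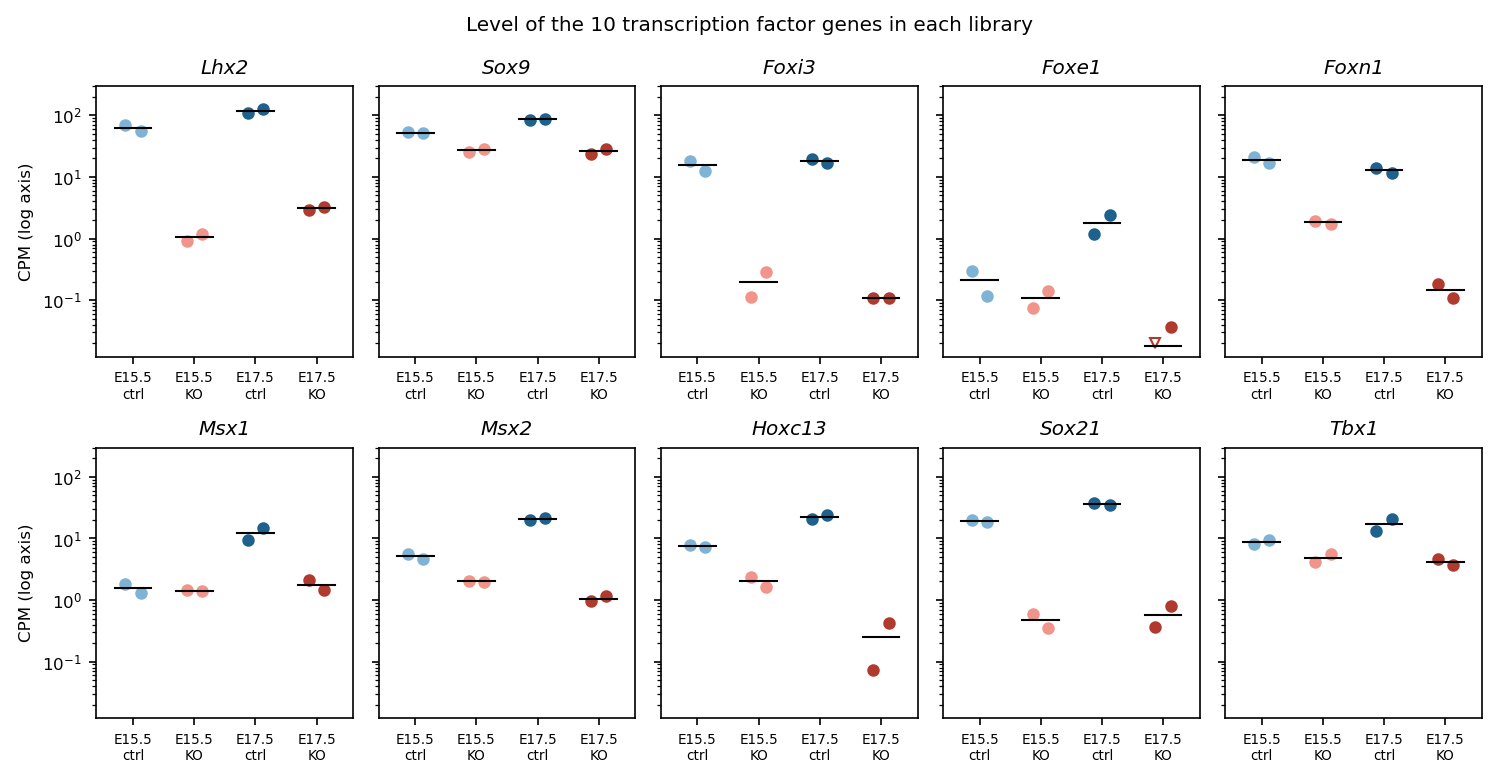
CPM (log axis) of each of the 10 genes in every library, 1 point per library, with the group mean as a bar; the open triangle marks the E17.5 knockout library in which Foxe1 had 0 counts. Lhx2, Foxi3 and Sox21 were already far below control at E15.5, while Msx1 overlapped control at E15.5 and lay below it at E17.5.

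At E15.5, 8 of the 10 genes fell in the knockout, none rose, and Msx1 and Foxe1 did not pass the test. Over all 16342 genes tested, 22.3% fell and 23.2% rose (45.5% in all), with a median log2 fold change near 0 (-0.0047). The median over the 10 genes was -1.61. At E17.5 all 10 fell, with a median of -5.61, where 26.7% of all genes fell, 53.5% changed in either direction and the median was -0.02. The control and knockout libraries did not overlap for 8 of the 10 genes at E15.5 and for all 10 at E17.5, where 37.3% and 39.7% of all genes were lower without overlap and 37.1% and 38.4% were higher. Foxi3 and Foxe1 passed the filter on low counts only through control libraries, so a gene of that kind had to be lower in the knockout to be tested. Without E15.5 knockout replicate 1, 7 genes fell at E15.5 and the median was -1.78; the gene lost was Tbx1.

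**Figure D3:**
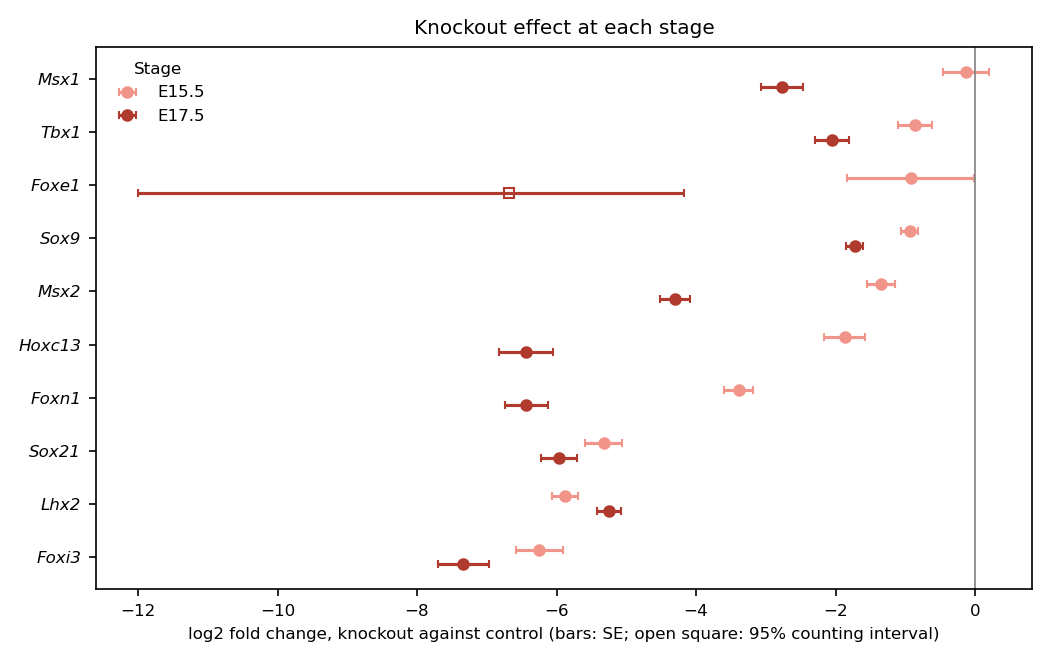
Log2 fold change of each gene, knockout against control, at E15.5 (pale) and E17.5 (dark), with bars of 1 SE; the open square for Foxe1 at E17.5 is a ratio of counts with its 95% counting interval. Foxi3, Lhx2 and Sox21 sit between -5.25 and -7.34 at both stages, and Hoxc13, Msx2 and Msx1 sit further left at E17.5 than at E15.5.

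Lhx2 is a LIM homeodomain factor that maintains follicle stem cells. It lies on chromosome 2 (GRCm38, 38339271 to 38369737, plus strand), and the transcript counted has 5 exons. Lhx2 stood at 69.5 and 56.3 CPM in the E15.5 controls and 0.925 and 1.20 CPM in the knockouts, and 108 and 128 CPM against 2.92 and 3.27 CPM at E17.5. Both control libraries were far above both knockout libraries at each stage, and the knockouts kept 1.69% and 2.63% of the control mean. It fell by 5.88 ± 0.19 on the log2 scale at E15.5 (edgeR adjusted p = 4.9e-09) and fell by 5.25 ± 0.17 at E17.5 (edgeR adjusted p = 2.1e-09). Lhx2 was the 1 gene of the 10 that rose between the stages within the knockouts, by 1.54 ± 0.23 (edgeR adjusted p = 0.00078), and it rose by 0.90 ± 0.13 in controls (edgeR adjusted p = 0.0016). The difference between its knockout effects at the 2 stages was 0.63 ± 0.26 and missed the threshold (edgeR adjusted p = 0.23).

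Foxi3 encodes a forkhead factor of placodes and teeth that lies downstream of Eda signalling. It is on chromosome 6 (70956606 to 70961066, plus strand). It had 18.1 and 12.7 CPM in the E15.5 controls and 0.111 and 0.281 CPM in the knockouts, from 3 and 8 counts, and 19.7 and 16.9 CPM against 0.110 and 0.108 CPM at E17.5, from 3 counts in each knockout library. No knockout library came near a control library. The log2 fold change was -6.25 ± 0.34 at E15.5 (edgeR adjusted p = 1.1e-07) and -7.34 ± 0.37 at E17.5 (edgeR adjusted p = 3.4e-08), and it was -7.06 at E15.5 without knockout replicate 2. Edar, the receptor for Eda, was the gene most alike in pattern to Foxi3 and measured 35.5 CPM in control and 0.338 CPM in knockout at E15.5, and 33.6 and 0.381 CPM at E17.5. Between stages in controls Foxi3 was not called (0.25 ± 0.21, edgeR adjusted p = 0.55).

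Sox21, an HMG-box factor needed for the cuticle of the hair shaft, was also nearly lost at both stages. It is a gene of 1 exon on chromosome 14 (118233233 to 118237030, minus strand). It had 19.6 and 18.3 CPM in the E15.5 controls and 0.592 and 0.352 CPM in the knockouts, and 38.2 and 34.6 CPM against 0.365 and 0.791 CPM at E17.5. The groups were widely separated at both stages, with 2.49% and 1.59% of the control mean left. The log2 fold changes were -5.32 ± 0.27 (edgeR adjusted p = 6.1e-08) and -5.96 ± 0.26 (edgeR adjusted p = 1.1e-08), and the latter was -6.64 without E17.5 knockout replicate 2. The difference between the stages was not called for Foxi3 (-1.09 ± 0.74, edgeR adjusted p = 0.50) or for Sox21 (-0.64 ± 0.45, edgeR adjusted p = 0.52).

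Sox9, an HMG-box factor of the follicle outer root sheath and stem cells, kept more of its level. It lies on chromosome 11 (112782210 to 112787757, plus strand). It had 53.3 and 51.0 CPM in the E15.5 controls and 25.6 and 28.9 CPM in the knockouts, and 85.0 and 86.7 CPM against 23.4 and 28.4 CPM at E17.5. The knockouts lay below the controls without overlap and stood at about the same level at both stages. It fell by 0.94 ± 0.12 on the log2 scale at E15.5 (edgeR adjusted p = 6.9e-05), leaving 52.2% of the control mean, and fell by 1.73 ± 0.12 at E17.5 (edgeR adjusted p = 4.7e-07), leaving 30.2%. Sox9 is also made in cartilage and glia. The 10 cartilage markers summed to 27.4 to 30.5 CPM in E15.5 controls and 40.5 to 105 CPM in E15.5 knockouts, and to 27.3 to 34.1 and 30.0 to 32.8 CPM at E17.5; 4 of the 7 tested rose at E15.5 and 1 fell at E17.5. Those that rose at E15.5 were Col2a1, Acan, Col9a2 and Col11a1, and Acan was the one that fell at E17.5. Matn1, Matn3 and Snorc did not pass the filter on low counts and were not tested. The library with high Col2a1, E15.5 knockout replicate 1, was the lower of its pair for Sox9, and without it the E15.5 fold change was -0.86. The 9 Schwann cell and neuron markers summed to 146 to 165 CPM in controls and 172 to 174 CPM in knockouts at E15.5. At E17.5 the sums were 131 to 136 and 153 to 158 CPM. Single markers went both ways, with 4 risen and 3 fallen at E15.5 and 6 risen and 3 fallen at E17.5. Sox10, a relative of Sox9, rose from 24.97 to 38.1 CPM and from 24.8 to 36.9 CPM. The part of these cells in the Sox9 level was not tested.

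Tbx1 encodes a T-box factor of stem cells in the hair follicle that is also active in head muscle and pharyngeal tissue. It is on chromosome 16 (18580979 to 18590671, minus strand). Its levels were 8.15 and 9.29 CPM in the E15.5 controls and 4.07 and 5.52 CPM in the knockouts, and 13.4 and 20.7 CPM against 4.60 and 3.67 CPM at E17.5. Knockouts were below controls at both stages, by a narrower margin than for Lhx2, Foxi3 or Sox21. Tbx1 fell by 0.86 ± 0.24 on the log2 scale at E15.5 (edgeR adjusted p = 0.014), and the call did not survive leaving out E15.5 control replicate 2 (edgeR adjusted p = 0.076) or E15.5 knockout replicate 1 (edgeR adjusted p = 0.097). At E17.5 it fell by 2.05 ± 0.24 (edgeR adjusted p = 3.2e-05). The 10 skeletal muscle markers summed to 9246 to 11656 CPM in E15.5 controls and 16558 to 16948 CPM in knockouts, and to 10068 to 11233 and 22321 to 29767 CPM at E17.5, with 9 and then 10 of 10 risen. The part of muscle in the Tbx1 level was not tested.

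Foxn1 is the forkhead gene mutated in nude mice and acts in matrix and suprabasal keratinocytes. It lies on chromosome 11 (78357577 to 78386783, minus strand), with 9 exons in the transcript counted. It had 21.3 and 17.02 CPM in the E15.5 controls and 1.92 and 1.72 CPM in the knockouts, and 14.1 and 11.7 CPM against 0.183 and 0.108 CPM at E17.5. The E17.5 knockouts were the lowest group and their libraries held 5 and 3 counts. Foxn1 fell by 3.39 ± 0.21 at E15.5 (edgeR adjusted p = 3.3e-07) and fell by 6.43 ± 0.31 at E17.5 (edgeR adjusted p = 2.5e-08), and the difference of -3.04 ± 0.44 passed the test (edgeR adjusted p = 0.0026). Within knockouts it fell by 3.61 ± 0.38 between the stages (edgeR adjusted p = 6.3e-05). In controls the change was -0.57 ± 0.18 (edgeR adjusted p = 0.070); it passed the threshold with limma-voom (adjusted p = 0.036) and with a replicate block (edgeR adjusted p = 0.047).

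Krt10, the keratin of the suprabasal layers, was the gene most alike in pattern to Foxn1 among 13096 or 13097 candidates per gene. It fell by 3.80 ± 0.23 at E15.5 (edgeR adjusted p = 2.5e-07) and fell by 5.73 ± 0.25 at E17.5 (edgeR adjusted p = 1.3e-08). The 9 suprabasal keratinocyte markers all fell at both stages, from sums of 88109 to 93218 CPM to 6170 to 6434 CPM at E15.5 and from 43184 to 56628 CPM to 1178 to 1348 CPM at E17.5. The part of the suprabasal cells in the fall of Foxn1 was not tested.

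Hoxc13 encodes a homeodomain factor that activates hair keratin genes in the shaft. It has 2 exons on chromosome 15 (102921131 to 102928814, plus strand). It had 7.70 and 7.14 CPM in the E15.5 controls and 2.41 and 1.65 CPM in the knockouts, and 20.4 and 24.1 CPM against 0.0730 and 0.431 CPM at E17.5, from 2 and 12 counts. The controls were higher at E17.5 than at E15.5, and the knockouts were lower. It fell by 1.87 ± 0.29 at E15.5 (edgeR adjusted p = 0.00034) and fell by 6.43 ± 0.39 at E17.5 (edgeR adjusted p = 1.5e-07). The E17.5 knockout libraries differed from each other, and the value there was -5.70 without replicate 1 and -8.18 without replicate 2. The difference between the stages was -4.56 ± 0.52 (edgeR adjusted p = 0.00054), and it was -3.82 and -6.31 without those libraries.

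Msx2, a homeodomain factor of the matrix that acts with Foxn1 in shaft differentiation, lies on chromosome 13 (53466881 to 53472780, minus strand). It had 5.59 and 4.65 CPM in the E15.5 controls and 2.04 and 1.97 CPM in the knockouts, and 19.7 and 21.8 CPM against 0.949 and 1.15 CPM at E17.5. Each stage and genotype formed a group of its own without overlap. Msx2 fell by 1.35 ± 0.20 at E15.5 (edgeR adjusted p = 0.00025) and fell by 4.30 ± 0.22 at E17.5 (edgeR adjusted p = 3.3e-08). The difference was -2.95 ± 0.30 (edgeR adjusted p = 0.00030). The RefSeq models also place the long non-coding gene Gm33763 over the Msx2 transcript, with its strand not given, so some Msx2 counts may belong to it.

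Msx1, the close relative of Msx2, differed in that its level was not distinguishable between the genotypes at E15.5. It lies on chromosome 5 (37820491 to 37824585, minus strand). It had 1.81 and 1.31 CPM in the E15.5 controls and 1.44 and 1.41 CPM in the knockouts, and 9.53 and 14.7 CPM against 2.12 and 1.44 CPM at E17.5. The groups overlapped at E15.5 and were separate at E17.5. The log2 fold change was -0.13 ± 0.34 at E15.5 (edgeR adjusted p = 0.78), where the knockout counts were 91.3% of control with a 95% counting interval of 66.2% to 126%. It fell by 2.77 ± 0.29 at E17.5 (edgeR adjusted p = 1.3e-05), and the difference between the stages was -2.64 ± 0.45 (edgeR adjusted p = 0.0067). Most dermal fibroblast markers rose in the knockouts at both stages, and the part of dermal cells in the Msx1 level was not tested. The antisense gene Msx1os overlaps 1137 of the 1935 bases of the Msx1 transcript. Its counts were 66.7% to 97.4% of those of Msx1 in every library, and the strand setting of the counting is not given in the sources used here, so the reads of Msx1 and Msx1os cannot be told apart. Lhx2, Sox21 and Foxe1 also share exon bases with antisense genes, over 206, 799 and 1907 bases.

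Foxe1 encodes a forkhead factor that acts under Shh in the growing follicle and is better known from the thyroid. It is a gene of 1 exon on chromosome 4 (46343644 to 46345774, plus strand) and was the least abundant of the 10. It had 0.302 and 0.115 CPM in the E15.5 controls and 0.0740 and 0.141 CPM in the knockouts, from 2 to 8 counts a library, so a difference was not detectable at this depth (edgeR adjusted p = 0.44). At E17.5 the controls had 1.20 and 2.44 CPM, from 33 and 76 counts, and the knockouts had 0 and 1 count. The knockout counts were 0.976% of control, scaled to library size, with a 95% counting interval of 0.0245% to 5.55% (edgeR adjusted p = 0.00015 for the fall). Intervals of this kind cover counting error only.

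Across the 10 genes, 5 had a knockout effect that was more negative at E17.5 than at E15.5, namely Foxn1, Hoxc13, Msx2, Msx1 and Sox9, and none was less negative by this test. Over all genes 2.47% were called more negative, 1.88% more positive and 4.35% in all. For Sox9 the difference was -0.79 ± 0.17 (edgeR adjusted p = 0.021), and it was lost when any 1 of 5 libraries was left out (edgeR adjusted p = 0.061 to 0.086). Those were both E15.5 controls, E15.5 knockout replicate 2, E17.5 control replicate 2 and E17.5 knockout replicate 1. The Foxe1 and Tbx1 differences missed the threshold, at edgeR adjusted p = 0.080 and 0.084, and the latter was called by DESeq2 (adjusted p = 0.032), in edgeR without the filter on low counts (adjusted p = 0.040) and with library totals in place of TMM (adjusted p = 0.039). Leaving out E17.5 control replicate 1 also brought the Tbx1 difference past the threshold (edgeR adjusted p = 0.031).

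The change between the stages showed where these differences lay. In controls 8 of the 10 genes rose from E15.5 to E17.5 and none fell, with a median of 0.96 over the 10. By the same test 3.15% of all genes rose and 7.70% fell (10.9% in all). The control libraries of the 2 stages did not overlap for 9 of the 10, with Foxn1 lower and the others higher at E17.5. Of all genes, 23.5% were higher and 27.3% lower without overlap. Msx1 rose by 2.96 ± 0.30 (edgeR adjusted p = 0.00022), Msx2 by 2.02 ± 0.18 (edgeR adjusted p = 0.00011) and Hoxc13 by 1.58 ± 0.26 (edgeR adjusted p = 0.0026). Foxe1 rose by 3.10 ± 0.64 (edgeR adjusted p = 0.0094), a call lost without E15.5 control replicate 2 (edgeR adjusted p = 0.12) or E17.5 control replicate 2 (edgeR adjusted p = 0.13), and its value was 3.94 without E15.5 control replicate 1 and 2.49 without E17.5 control replicate 2. It passed the filter on low counts only through the E17.5 controls, so it had to be higher there to be tested, and 7 of the other 9 genes rose. Sox9 (0.72 ± 0.12), Sox21 (0.94 ± 0.18) and Tbx1 (0.97 ± 0.23) rose by less, with edgeR adjusted p of 0.0025, 0.0059 and 0.020. Sox21 was not called when E15.5 control replicate 2 was left out (edgeR adjusted p = 0.078), nor was Tbx1 without either E15.5 control (edgeR adjusted p = 0.12 and 0.093) or E17.5 control replicate 2 (edgeR adjusted p = 0.23).

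In knockouts 1 of the 10 rose between the stages, Lhx2, and 3 fell, with a median of -0.53. Of all genes 6.19% rose and 6.91% fell (13.1% in all). The genes that fell were Foxn1, Hoxc13 (-2.98 ± 0.46, edgeR adjusted p = 0.0011) and Msx2 (-0.93 ± 0.24, edgeR adjusted p = 0.025). The Msx2 call was also lost with limma-voom (adjusted p = 0.12) and in an edgeR fit of the compared groups alone (adjusted p = 0.11). It was lost too when any 1 of the 4 knockout libraries was left out (edgeR adjusted p = 0.053 to 0.17), and the Hoxc13 value was -2.23 and -4.71 without E17.5 knockout replicates 1 and 2. Sox9 (-0.07 ± 0.12), Msx1 (0.32 ± 0.33), Tbx1 (-0.22 ± 0.25) and Sox21 (0.30 ± 0.40) did not pass the test. The stage and knockout comparisons share libraries, so their values stand side by side and are not independent of each other.

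**Figure D4:**
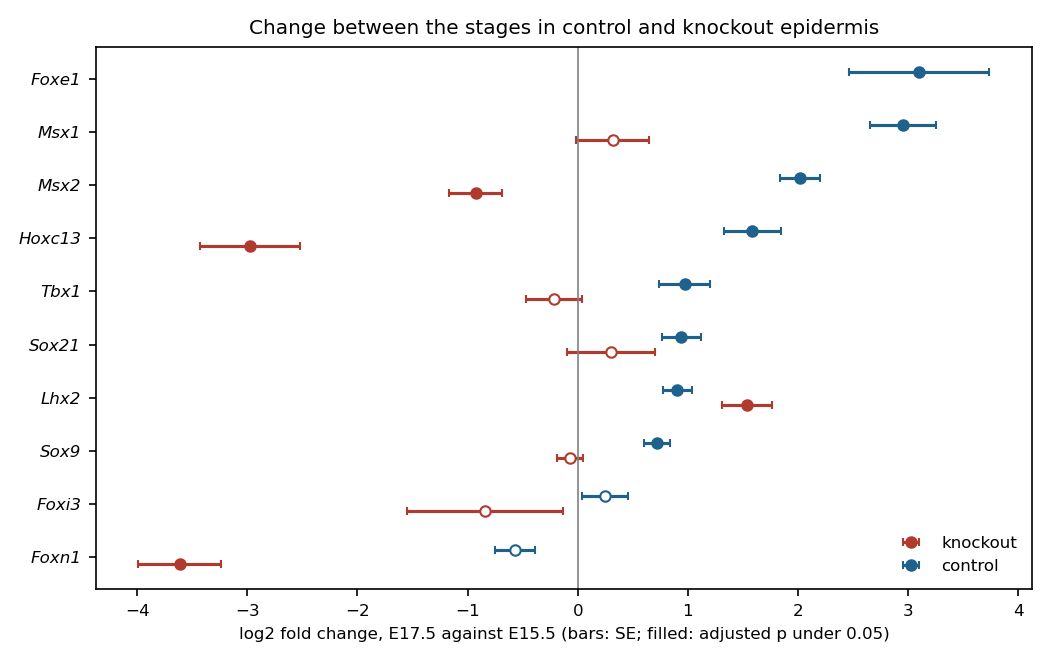
Log2 fold change from E15.5 to E17.5 in control (blue) and knockout (red) epidermis, with bars of 1 SE and filled points for an adjusted p under 0.05; Foxe1 in knockouts is not drawn because its 2 groups held 7 counts in all. Msx2 and Hoxc13 lie right of 0 in controls and left of 0 in knockouts.

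Promoter sequence was read for 7 of the 10 genes, which have 9 promoters in the RefSeq table of GRCm38.p6. The motifs searched on both strands were the TATA box TATAAA, the core of the CCAAT box, the Sp1 box written as GGGCGG, the E-box forms CACGTG and, as a further form, CACCTG, the Lef1 and Tcf site in its forms ATCAAAG and, as a further form, TTCAAAG, and the Gli site written as GACCACCCA. No search motif lies inside another. Within the 250 bases before the start, 6 of the 9 promoters held GGGCGG, which 32.7% of all 32851 promoters hold there. Those were promoters of Foxi3, Foxn1, Lhx2, Msx1, Msx2 and Tbx1. CCAAT was in the promoters of Foxn1, Msx1 and Msx2, against 33.8% of all. None of the 9 held TATAAA (12.4% of all promoters), the E-box form CACGTG (6.02%), the Lef1 forms ATCAAAG (3.21%) and, as the other, TTCAAAG (4.46%), or the Gli motif GACCACCCA (0.225%). CACCTG was in that of Msx1, against 17.2% of all. Msx1 and Sox21 are shown because they set a gene not distinguishable from control at E15.5 (Msx1) beside one at 2.49% of control (Sox21), and because both stretches lie before every annotated start of their gene. Capitals mark matches to the motifs, on either strand. The Msx1 stretch is chr5:37824586-37824835 and the Sox21 stretch chr14:118237031-118237280, both on the minus strand and written 5′ to 3′.
Msx1: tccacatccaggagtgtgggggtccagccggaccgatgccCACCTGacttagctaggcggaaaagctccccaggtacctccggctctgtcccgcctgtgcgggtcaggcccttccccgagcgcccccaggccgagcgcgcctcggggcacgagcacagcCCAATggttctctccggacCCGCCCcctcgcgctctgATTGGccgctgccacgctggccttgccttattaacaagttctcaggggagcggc
Sox21: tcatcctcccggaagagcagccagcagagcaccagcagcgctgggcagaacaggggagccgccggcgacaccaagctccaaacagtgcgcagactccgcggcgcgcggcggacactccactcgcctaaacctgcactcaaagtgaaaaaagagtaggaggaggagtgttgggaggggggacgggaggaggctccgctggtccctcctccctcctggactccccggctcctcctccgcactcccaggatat
The Msx1 stretch holds the CCAAT motif at 2 places, once on the opposite strand. The Sp1 motif occurs once in it, on the opposite strand, and the E-box form CACCTG also once, and 68.0% of its letters are G or C. The Sox21 stretch holds none of the 8 motifs and is 65.2% G or C. A match is a description of letters and not of a bound site.

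The signals that act before and with these factors were lower too. Of 22 genes of placode and follicle signalling, 19 fell and 1 rose at E15.5 (median -2.26), and 20 fell and 1 rose at E17.5 (median -2.83). Shh, Dkk4 and Fgf20 had knockout means under the filter's cutoff of 0.357 CPM at both stages. They passed the filter only through control libraries, so a fall was built into their testing. Shh, the ligand that drives follicle downgrowth, fell from 26.8 to 0.254 CPM at E15.5 (-6.70 ± 0.21, edgeR adjusted p = 4.7e-09) and from 40.02 to 0.145 CPM at E17.5. Gli1, a target of the pathway, fell from 226 to 25.8 CPM at E17.5 (-3.13 ± 0.11, edgeR adjusted p = 3.1e-09). Eda, the ligand of Edar, was the gene that rose, from 17.8 to 30.1 CPM at E15.5 (0.76 ± 0.16, edgeR adjusted p = 0.0025) and from 16.6 to 25.7 CPM at E17.5.

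Of 20 other transcription factors of follicles, 11 fell and 3 rose at E15.5 (median -0.73), and 12 fell and 3 rose at E17.5 (median -1.07). Among the fallen, Dlx4 had knockout means of 0.250 and 0.109 CPM, under the filter's cutoff. It passed only through control libraries, so its fall was built into its testing. Dlx3, a homeodomain factor of the matrix, fell from 101 to 23.1 CPM at E15.5 and from 131 to 3.01 CPM at E17.5 (-5.44 ± 0.13, edgeR adjusted p = 1.6e-09). Tfap2c, an AP-2 factor, stood at 54.8 CPM in control and 7.61 CPM in knockout at E15.5, and at 55.4 and 2.50 CPM at E17.5, and fell at both stages. Gli3, which represses Hedgehog targets and is made in dermis too, rose from 45.0 to 58.9 CPM (0.39 ± 0.10, edgeR adjusted p = 0.0084) and from 50.2 to 64.5 CPM. Tcf7l1 rose at E15.5, from 80.7 to 112 CPM, and Lhx6 at E17.5, from 4.999 to 8.67 CPM.

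Most products of the hair shaft and inner root sheath were lower as well. Of the 21 tested, 12 fell and 3 rose at E15.5 (median -1.31), and 18 fell and none rose at E17.5. The E17.5 median was -5.46, and -4.73 when a gene with 0 knockout counts was set at its bound. In controls 15 of the 21 rose between the stages and none fell, with a median of 3.36. Of these 21, Dsg4, Krt31, Krt33a, Krt81 and Krt83 passed the filter on low counts only through the E17.5 controls, so a rise in controls and a fall at E17.5 were built into their testing. Among the other 16, 11 fell at E15.5, 13 fell at E17.5 and 11 rose in controls. These still include Krt27, Krt28, Krt72 and Krt82, whose knockout means were under the filter's cutoff of 0.357 CPM at both stages. They needed control libraries to pass, so a fall in the knockout was favoured for them as well. At E15.5 the inner root sheath keratins Krt28 and Krt25 fell, from 7.09 to 0.127 CPM (-5.76 ± 0.38, edgeR adjusted p = 4.8e-07) and from 7.33 to 0.178 CPM (-5.31 ± 0.53, edgeR adjusted p = 1.2e-05). The inner root sheath keratin Krt27 stood at 65.6 CPM in E17.5 controls and 0.236 CPM in knockouts (-8.10 ± 0.26, edgeR adjusted p = 2.1e-09). Trichohyalin (Tchh) stood at 214 and 8.52 CPM (-4.65 ± 0.14, edgeR adjusted p = 2.0e-09). The companion layer keratin Krt75 and the shaft keratin Krt34 rose at E15.5, from 0.800 to 8.61 CPM (3.42 ± 0.28, edgeR adjusted p = 3.0e-06) and from 0.211 to 4.83 CPM (4.50 ± 0.52, edgeR adjusted p = 3.6e-05). Most keratins of the periderm list rose in the same libraries, Krt6a from 46.6 to 1562 CPM. Krt17 of that list fell, from 496 to 325 CPM (-0.61 ± 0.15, edgeR adjusted p = 0.0066). The part of the periderm in the rise of Krt75 and Krt34 was not tested.

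The fall was not limited to follicle regulators. Of 20 transcription factors of the epidermis at large, 17 fell and 2 rose at E15.5 (median -1.46), and 16 fell and 1 rose at E17.5 (median -2.21). Among the fallen, Ovol2 had knockout means of 0.0370 and 0.0901 CPM, under the filter's cutoff. It passed only through control libraries, so its fall was built into its testing. Trp63, the master factor of stratified epithelia, fell from 222 to 17.4 CPM at E15.5 (-3.67 ± 0.16, edgeR adjusted p = 2.9e-08), and Grhl2 from 54.4 to 2.55 CPM at E17.5 (-4.41 ± 0.16, edgeR adjusted p = 4.2e-09). Tfap2a, another AP-2 factor, fell from 122 to 18.6 CPM at E15.5 and from 117 to 7.29 CPM at E17.5. Maf rose at both stages (124 to 159 CPM and 109 to 174 CPM) and Elf3 at E15.5 (4.33 to 8.23 CPM). Between the stages in controls, 7 of the 20 fell and none rose.

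Among relatives of the 10 genes more rose than fell. Of 28 paralogues 12 passed the filter, and 5 had no counts in any library. At E15.5, 7 rose and 3 fell (median 0.48), and at E17.5, 7 rose and 2 fell (median 0.52). Sox8, of the Sox9 family, rose from 4.77 to 14.2 CPM (1.57 ± 0.19, edgeR adjusted p = 4.8e-05) and from 2.54 to 10.02 CPM (1.98 ± 0.20, edgeR adjusted p = 9.0e-06). Tbx15, a factor of the dermis, rose from 107 to 156 CPM at E15.5 (0.55 ± 0.10, edgeR adjusted p = 0.0011), and Tbx3 from 9.74 to 23.0 CPM at E17.5 (1.24 ± 0.14, edgeR adjusted p = 2.2e-05). Sox2, of the Sox21 family and a marker of Merkel cells and dermal papilla, fell from 4.04 to 0.470 CPM (-3.09 ± 0.33, edgeR adjusted p = 2.0e-05) and from 3.32 to 0.653 CPM. Foxn3 fell at E15.5 (38.5 to 26.0 CPM, edgeR adjusted p = 0.0012). Lhx3 was at 0.501 CPM in E17.5 controls and had no counts in the E17.5 knockouts. It passed the filter on low counts only through the E17.5 controls, so that fall was built into its testing. Among the other 11 paralogues tested, 2 fell at E15.5 and 1 at E17.5. The paralogues that rose include genes known from dermis, as did the fibroblast markers, and the part of dermal cells in their rise was not tested.

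**Figure D5:**
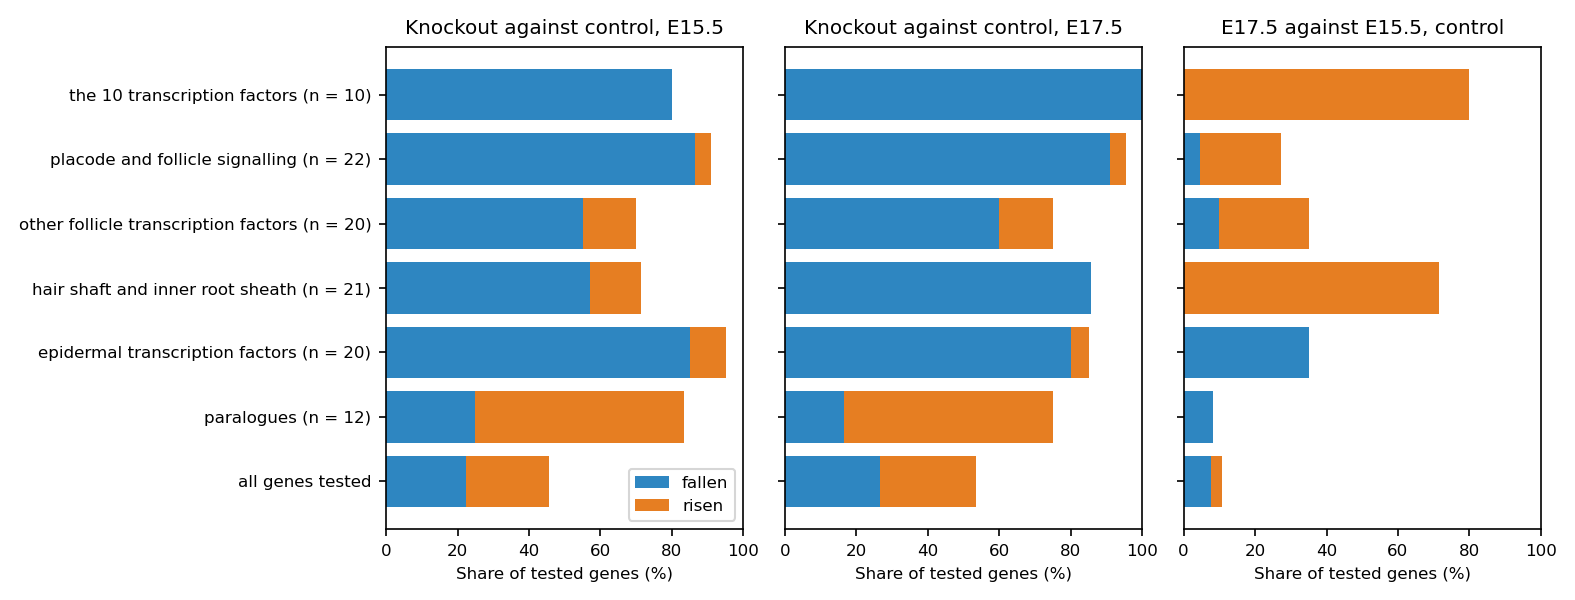
Share of tested genes (%) that fell (blue) or rose (orange) in 3 comparisons, for the 10 transcription factors, 5 related gene lists and all genes tested. Of the 10 factors 8 rose in controls between the stages, 8 fell in the knockouts at E15.5 and 10 at E17.5, while more paralogues rose than fell in the knockouts.

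Patterns over the 8 libraries were compared as the root mean square difference of log2 CPM, centred on each gene's mean and with a prior count of 2, over genes whose mean log2 CPM was 1 or more. This measure describes shape and carries no test. Among the 10 genes, Sox9 and Tbx1 were the most alike pair, at 0.25, followed by Foxe1 and Msx2 (0.45), Lhx2 and Sox21 (0.57) and Foxi3 and Sox21 (0.70). Outside the 10, Lhx2 was closest to Krt79 (0.34), Alox12e (0.34) and Arg2 (0.41), and Foxi3 to Edar (0.40), Tgm3 (0.42) and Chga (0.44). Sox21 was closest to Tenm2 (0.52), Lgr6 (0.53) and Lhx2 (0.57). Sox9 was closest to Msmo1 (0.12), Moxd1 (0.12) and Prps2 (0.13), and Tbx1 to Bach2, Moxd1 (both 0.20) and Cib2 (0.25).

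For Msx2, Foxe1 and Msx1, the nearest genes included a listed product of the hair shaft and inner root sheath, Tchh or Padi3. Msx2 was closest to Tchh (0.45), Mycn (0.46) and Alx4 (0.49). Foxe1 was closest to Tchh (0.42), Msx2 and Alpl (0.77), but it had 0 to 8 counts in 6 of the 8 libraries, so the prior count damps its pattern and these distances describe it poorly. Msx1 was closest to its antisense gene Msx1os (0.18), then to Padi3 (0.47) and Tshr (0.48). Hoxc13 had no close match, with Dlx3 nearest at 0.67, then Plek2 (0.78) and Gata3 (0.79). Foxn1 was closest to Krt10 (0.21), Cyp2w1 (0.22) and Lce1m (0.30).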

How the data were processed

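The authors deposited 1 table per library with raw counts of reads per RefSeq transcript. Per the labels and the series' design text, RNA was extracted with Trizol, reads were aligned to mm10 with TopHat version 2, counted with HOMER, and tested with edgeR. No HOMER version, strand setting or rule for multiply mapped reads is given in the sources used here. Of 30521 transcripts, 29908 were named through the RefSeq table of GRCm38.p6 and 182 through GENCODE M21. The other 431 (2.08% of counts) were left out. Each of the 10 genes has 1 transcript row; elsewhere the transcript with the largest total stands for the gene.

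Counts were tested with edgeR 4.0.16 (R 4.3.3) by the quasi-likelihood test, after filterByExpr (16342 genes) and TMM scaling, with 1 mean per group over all 8 libraries. p-values were adjusted by Benjamini-Hochberg across those genes, with calls under 0.05. The SE of a log2 fold change was its size over the root of the F statistic. The script was tested on simulated data. DESeq2 1.42.0 and limma 3.58.1 were alternatives. An exact permutation of 2 against 2 libraries cannot go below p = 0.333 (two-sided), so none is given.

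The genes and lists were chosen with earlier results of these data known. Named beside the 10 are the 3 most alike genes each, and, per list of regulators, products or relatives, up to 2 fallen and 2 risen genes with the smallest adjusted p in each knockout comparison. A gene that this rule names is not reported here. Other genes named, such as Edar, Sox10 and Col2a1, were chosen after their values were seen. CPM per kilobase used GENCODE transcript lengths.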

Additional observations from a re-analysis of the deposited data

Results flagged for a closer look

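The knockout effect differed between E15.5 and E17.5 for 5 of the 10 genes, by a test of the difference itself in edgeR. Its log2 size (E17.5 effect minus E15.5 effect) was -4.56 for Hoxc13, -3.04 for Foxn1, -2.95 for Msx2, -2.64 for Msx1 and -0.79 for Sox9, each with the fall larger at E17.5. The value for Sox9 is the one that did not pass in 5 of the 8 fits that left out a library.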

How the results depend on the processing

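Among 832 recomputed values of single genes over 17 alternatives, 801 kept their direction and side of the threshold, 19 lost a call, 6 gained one and 6 reversed. All values of the knockout effect at E17.5 kept their call. Leaving out 1 library at a time gave these ranges of genes called: 5678 to 7523 for the knockout at E15.5, 6820 to 8700 at E17.5, 377 to 716 for the difference between these effects, 666 to 1776 between stages in controls and 1160 to 2256 in knockouts. Reversals occurred in those fits alone, for values that were not called: Msx1 at E15.5 ranged from -0.35 to 0.13 (0.13 without E15.5 control replicate 1), and between stages in knockouts Sox9 ranged from -0.22 to 0.053, Sox21 from -0.36 to 0.74 and Tbx1 from -0.42 to 0.013; the cause was not tested. With library totals in place of TMM, the median of all genes moved to -0.24 for the knockout at E17.5 (3295 risen and 6284 fallen, against 4371 and 4364), to -0.21 for the difference (142 and 655, against 308 and 403) and to 0.19 between stages in controls (1486 and 762, against 515 and 1259). Of the 10 genes, 10 fell, 6 were more negative (5 with TMM) and 8 rose there. Replicate numbers did not pair the samples (correlations of deviations from -0.0698 to 0.0425), and a replicate block gave 7326, 8598, 770, 1733 and 2148 genes called in the comparisons named above, in that order. Only 2 libraries a group and knockout counts under 20 for Foxi3, Foxe1, Foxn1 and Hoxc13 limit the precision of their E17.5 folds.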

Other observations

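Among the relatives of Hoxc13, Hoxb13, a homeobox gene of the tail end of the body, had 2.18 CPM (59 counts) in E15.5 knockout replicate 1 and 0 counts in the other 7 libraries. Hoxa13 had 0.148 CPM (4 counts) in the same library and 0 in the others. Hoxd13 had 6 counts in it and 2 counts each in E15.5 control replicate 1 and both E17.5 knockouts. E15.5 knockout replicate 1 was the library with 34.5 CPM of Col2a1. These genes were picked after their values were seen, and what set that library apart was not tested.

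Krt75 had 0.755 and 0.845 CPM in the E15.5 controls, 8.99 and 8.23 CPM in the E15.5 knockouts, 25.8 and 37.9 CPM in the E17.5 controls and 14.9 and 20.3 CPM in the E17.5 knockouts. It was above control in both knockout libraries at E15.5 and below in both at E17.5. Krt34 had 4.63 and 5.03 CPM in the E15.5 knockouts and at most 1.11 CPM in any other library. Hair keratins are close in sequence, so counts of single members are uncertain.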
